A study of Mus musculus with 16 samples.

Results

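The genes described here encode the machinery by which a secretory vesicle fuses with the cell membrane, here read out as RNA in cultured mouse cells called preSC, which the submitters describe as precancerous cells of SCLC (small cell lung cancer). Members were chosen by gene symbol: synaptotagmins, syntaxins and their binding proteins, Vamp and Snap proteins, Rab3 GTPases, complexins, Unc13 and Rims proteins, Sv2 proteins, synapsins, synaptophysin and Doc2 proteins. Of the 17655 genes listed, 71 matched, and the 61 with a mean value of at least 10 over the 16 samples are described. The 12357 genes at or above that mean were tested. Per the labels, the cells are Chga-positive lung neuroendocrine cells. All of them are null for Rb1 and for Trp53 and carry 1 null allele of Rbl2 (labelled heterozygous null). The empty group was infected with a lentiviral empty control and the Wnt5a group with lentiviral Wnt5a, a secreted Wnt ligand. Doxycycline (1 µg/mL, 48 hours) was given to both groups ahead of RNA extraction, so the controls carry it too. The labels do not say whether each group is a clone or a pool of infected cells.

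Each group has 8 deposited samples, and the values are normalised read counts, that is reads per gene divided by 1 factor per sample. Samples 1 to 4 of a group, and samples 5 to 8, differed from each other by little more than counting noise (index of dispersion 0.987 to 1.05 in 24 pairs, against 5.23 to 5.44 in the 32 other pairs). They were averaged as libraries A and B, so every comparison rests on 2 libraries per group of 30220749 to 35315408 reads. Ranges over the 8 samples of a group, where given, describe repeat counts of 2 libraries and not 8 replicates. Nothing in the labels says that libraries A and B came from separate cultures, so the p-values measure only the spread between these libraries. Wnt5a itself stood at 144 and 99.8 in the controls and at 1049 and 1509 after its lentivirus, higher in the group labelled with it. The neuroendocrine markers were abundant in all 4 libraries, with Chga at 3007 to 4370. Of the 8 neuroendocrine markers, 1 (Scg2, lower in Wnt5a) passed the test, beside 2.06% of all genes tested. Scg2 lies on chromosome 1, where all genes tested had a median log2 difference of -0.17. Its log2 difference was -0.73, and -0.56 after that median was subtracted. The fibroblast markers summed to 604 and 353 without Wnt5a and 244 and 248 with it. Nearly all of that was Dcn, while Col3a1 was at 0.254 or below. The part of these transcripts in the results was not tested. Leukocyte, endothelial and glial markers summed to at most 20.2 in any library, and airway and alveolar markers to at most 49.4.

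Regulated secretion works through a small set of interlocking proteins. A SNARE protein on the vesicle (a Vamp) zips together with SNAREs on the cell membrane (a syntaxin and a Snap protein) and pulls both membranes into contact. Munc18 proteins (Stxbp genes) hold the syntaxin ready, Unc13 and Rims proteins dock and prime the vesicle, complexins hold the half-zipped complex, and synaptotagmins release it when calcium enters. Neuroendocrine cells of the lung use this neuronal machinery to release peptides and amines from dense-core vesicles, and synaptophysin is a routine marker of neuroendocrine tumours.

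Few members of this machinery passed the threshold, and for most the difference with Wnt5a was bounded within 1.5-fold. Smaller differences are not excluded by that bound. Of the 61 members, 1 rose (Stx5a) and 1 fell (Sv2b) in the Wnt5a libraries at a limma adjusted p under 0.05. That is 3.28% of the members, beside 2.06% of all genes tested. An unadjusted limma p under 0.05 was reached by 12 members, beside 16.1% of all genes tested. Adjusted calls over all genes tested came to 1.99% in edgeR and 4.35% in DESeq2, both on the recovered reads, and the counts by role below stand against these shares. The 95% interval of the log2 difference lay within 1.5-fold in either direction for 53 of the 61 members, beside 79.2% of all genes tested. It lay within 2-fold for all 61, beside 95%. The members outside the 1.5-fold bound were Rims1, Rims4, Stx3, Stx5a, Sv2b, Syn2, Syt3 and Syt4. The median log2 difference was -0.06 over the members and 0.0026 over all genes tested. Below 0 lay 37 members and above it 24, beside 6095 and 6262 of the 12357 genes tested. Both Wnt5a libraries lay below both empty libraries for 22 members (36.1%, beside 21.5% of all genes tested) and above them for 9 (14.8%, beside 22.7%). Over both directions 44.2% of all genes tested had libraries that did not overlap between groups. In bulk RNA, fewer cells of a type and less RNA per cell cannot be told apart. With 2 libraries against 2 an exact two-sided permutation test cannot go below p = 0.333, so the calls rest on limma, which shares the spread across genes.

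**Figure D1:**
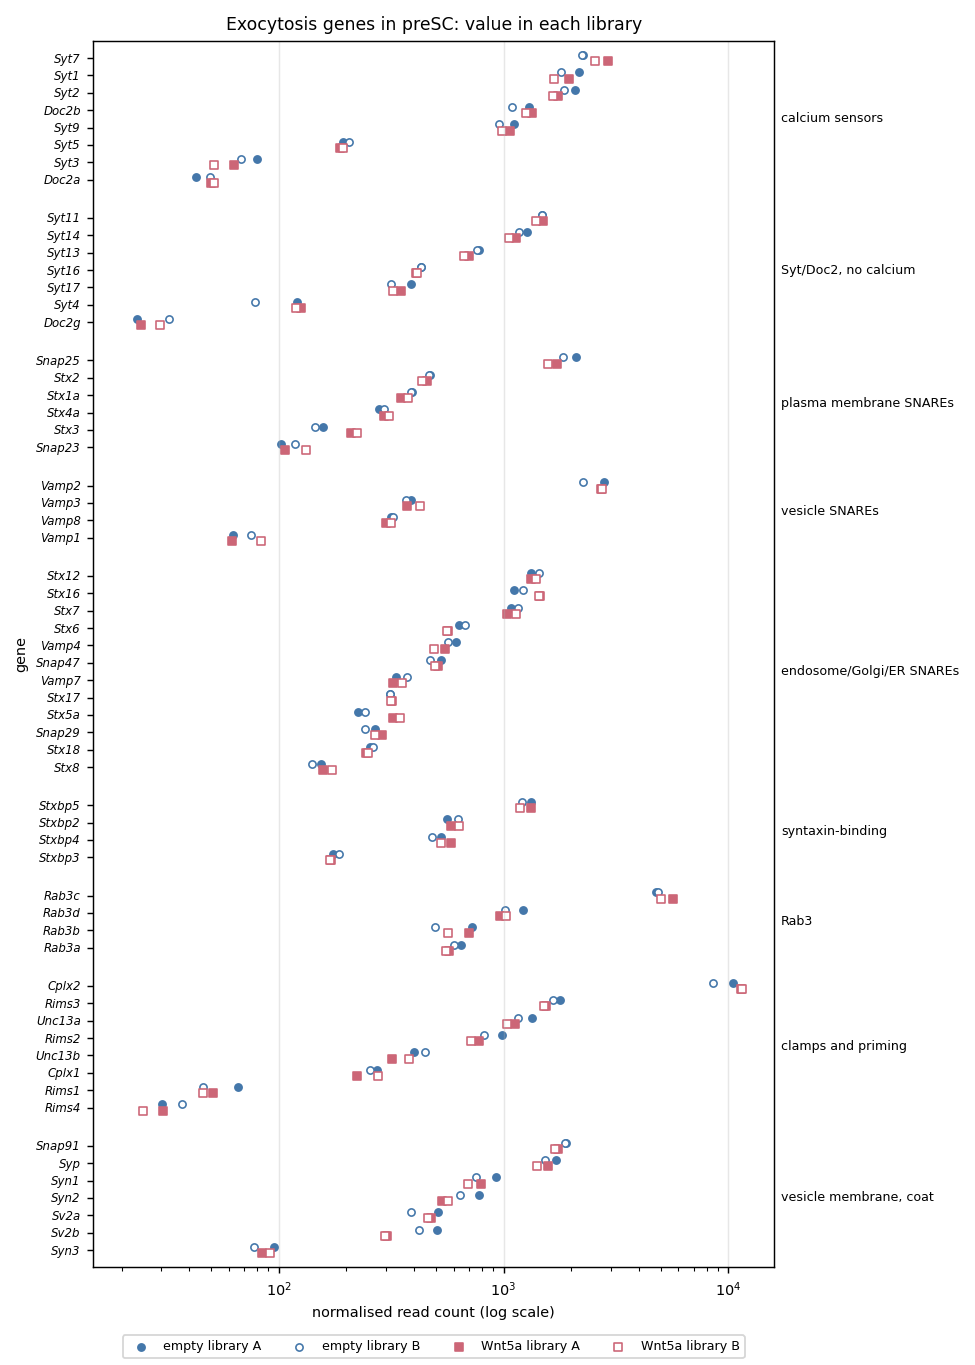
Normalised read count (log axis) of 60 of the 61 genes in the 4 libraries, grouped by role: circles are empty and squares Wnt5a libraries, filled for library A and open for library B. The 4 points of Stx17 lie close together, at 313 to 319, while those of Sv2b run from 297.5 to 507. Positions compare libraries and not genes, since the counts are not divided by length.

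**Figure D2:**
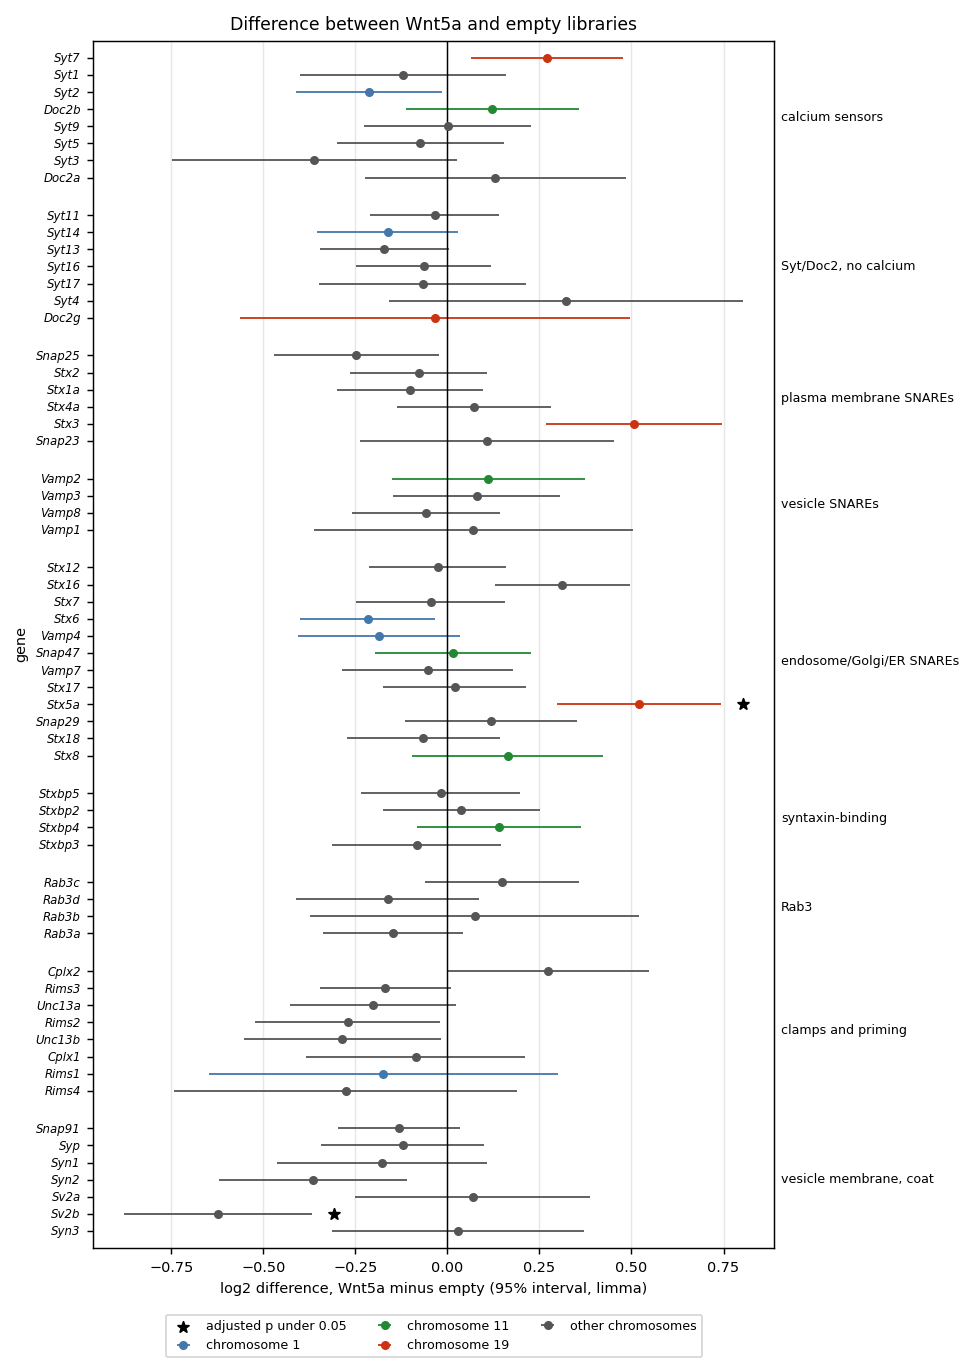
Log2 difference between the Wnt5a and empty libraries (points) with the 95% interval from limma (bars) for 60 of the 61 genes, coloured for chromosomes 1, 11 and 19; stars mark adjusted p under 0.05. The stars stand at Sv2b (-0.62) and Stx5a (0.52), and all intervals drawn lie inside 1 log2 unit of 0.

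The SNAREs of the cell membrane and of the secretory vesicle came first. Snap25, the neuronal membrane SNARE cut by botulinum toxin A, had the highest level per kilobase of transcript among the cell membrane SNAREs (370.5 normalised reads per kb). It stood at 2093 and 1835 without Wnt5a and at 1734 and 1571 with it, so both Wnt5a libraries lay below both empty ones. The log2 difference was -0.25 (SE 0.09, n = 2 libraries per group; limma adjusted p = 0.261). Its widely expressed relative Snap23 overlapped between the groups, at 103 and 118 against 107 and 132. Stx1a, the syntaxin partner of Snap25 in neurons, stood at 392 and 388 against 351 and 377. Stx2 and Stx4a, which serve secretion in many tissues, differed by -0.08 and 0.07 on the log2 scale.

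Stx3, the syntaxin of apical membranes and ribbon synapses, had the largest difference of this group. Its repeat counts ran from 118 through a median of 150.3 to 175 in the empty group. In the Wnt5a group they ran from 199 through 216 to 233, without overlap. Libraries that did not overlap between groups were found for 44.2% of all genes tested. Its libraries stood at 157 and 146 against 209 and 222, a log2 difference of 0.51 (SE 0.10, 95% interval 0.27 to 0.75; limma adjusted p = 0.065). DESeq2 on the recovered reads gave an adjusted p of 0.027 and edgeR 0.064 for Stx3. With 1 library left out the Stx3 difference ran from 0.45 to 0.56. Of the 6 cell membrane SNAREs, limma and edgeR called 0 and DESeq2 called 1, which was Stx3 (4.35% of all genes tested in DESeq2), and 2 had an unadjusted p under 0.05 in limma (16.1% of all genes tested).

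Vamp2, the main vesicle SNARE of neurons and endocrine cells, was the most abundant vesicle SNARE per kilobase (1194 normalised reads per kb). It stood at 2812 and 2264 without Wnt5a and at 2701 and 2750 with it, so that the 2 empty libraries enclosed both Wnt5a libraries. Its log2 difference was 0.11, with a 95% interval of -0.15 to 0.37. Vamp3 (367 to 424 over the 4 libraries), Vamp8 (299 to 322) and Vamp1 (62.2 to 83.7) differed by 0.08, -0.06 and 0.07 on the log2 scale. For these 4 genes limma, edgeR and DESeq2 made 0 calls at an adjusted p under 0.05, and 0 had an unadjusted p under 0.05 in limma.

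Calcium triggering rests on synaptotagmins and Doc2 proteins that bind calcium through paired C2 domains. Syt1, the fast sensor of synaptic vesicles, led this group per kilobase of the longest transcript (395 normalised reads per kb), ahead of Syt7 at 375. With the median transcript length in place of the longest, Syt7 led at 1548, followed by Syt2 at 947.6 and Syt1 at 578.5, so their order depends on the length used. Syt1 stood at 2168 and 1800 without Wnt5a and at 1963 and 1682 with it, with library A above library B in each group and the groups overlapping. Syt2, which replaces Syt1 at fast synapses and in some endocrine cells, stood at 2077 and 1864 against 1744 and 1652, which is -0.21 on the log2 scale (limma adjusted p = 0.277). Syt7, a slow high-affinity sensor used for dense-core vesicles, stood higher in Wnt5a, at 2257 and 2242 against 2901 and 2540, which is 0.27 on the log2 scale (limma adjusted p = 0.191). Syt9, which triggers release in some endocrine cells, had close means, 1033 ± 106 against 1031 ± 60.5 (SD, n = 2), with a 95% interval of -0.23 to 0.23.

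Among the other calcium sensors, Doc2b, a high-affinity sensor of spontaneous release and insulin secretion, stood at 1299 and 1096 against 1335 and 1263, which overlap. Syt5 (187 to 206) and Doc2a (43.0 to 51.4) differed by -0.07 and 0.13 on the log2 scale. Syt3 stood at 79.7 and 68.0 against 63.4 and 51.3, a log2 difference of -0.36 with a 95% interval of -0.75 to 0.02. Of the 8 calcium sensors tested, limma, edgeR and DESeq2 called 0, and 2 (Syt2 and Syt7) had an unadjusted p under 0.05 in limma, beside 16.1% of all genes tested.

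Synaptotagmins and Doc2 proteins not known to bind calcium were led per kilobase by Syt11, a brake on vesicle recycling, with 293 normalised reads per kb. Syt11 stood at 1488 in both empty libraries and at 1505 and 1402 in the Wnt5a libraries. Syt13 stood at 777 and 765.5 against 699.7 and 670.2, Syt14 at 1277 and 1177 against 1133 and 1059, and Syt16 at 429 and 430.1 against 407 and 414. For these 3 genes both Wnt5a libraries lay below both empty ones, as they did for 21.5% of all genes tested. Their log2 differences were -0.17, -0.16 and -0.06. Syt14 lies on chromosome 1, and after the median of that chromosome was subtracted its difference was 0.01. Syt4, a synaptotagmin of dense-core vesicles, depended on a single library: empty library B stood at 78.4, against 121 in empty library A and 126 and 119 in Wnt5a. Its log2 difference was 0.05 for library pair A and 0.59 for pair B, and 0.32 in the fit (SE 0.20; limma adjusted p = 0.525). Without empty library B the Syt4 difference was 0.013, and without empty library A it was 0.63. Syt17 and Doc2g overlapped between the groups. Limma, edgeR and DESeq2 called 0 of the 7, and 0 had an unadjusted p under 0.05 in limma.

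Syntaxin-binding proteins hold syntaxins ready for fusion or keep them from it. Stxbp2, the form of blood cells and epithelia, overlapped between groups (561 to 633), as did Stxbp5 (tomosyn, an inhibitor of SNARE assembly, 1178 to 1327) and Stxbp4 (479 to 585). Stxbp3 stood at 175 and 185 against 171 and 169. The log2 differences of Stxbp2, Stxbp3, Stxbp4 and Stxbp5 were 0.04, -0.08, 0.14 and -0.02. Limma, edgeR and DESeq2 called 0 of the 5 syntaxin-binding genes tested, and 0 had an unadjusted p under 0.05 in limma.

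Rab3 GTPases ride on secretory vesicles and bind the Rims proteins of the docking site. Rab3c led per kilobase (602 normalised reads per kb), and stood at 4787 and 4847 without Wnt5a and at 5668 and 5030 with it, a log2 difference of 0.15 with a 95% interval of -0.06 to 0.36. Rab3a, the main form of brain, stood at 649 and 601.5 against 573 and 554. Rab3d, the form of exocrine glands, stood at 1221 and 1012 against 961 and 1026. Rab3b varied more between A and B than between groups, at 725 and 493 without Wnt5a and 699.6 and 567 with it. The differences of Rab3a and Rab3d were -0.15 and -0.16, and 0 of the 4 genes passed in limma, edgeR or DESeq2, with 0 at an unadjusted p under 0.05 in limma.

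Complexins and priming factors held both a very abundant member and several that stood lower in Wnt5a. Cplx2, a complexin that holds the SNARE complex until calcium arrives, had 2126 normalised reads per kb, the highest of the 60 members with a known transcript length when the longest transcript is used. With the median transcript length Syp (3357) and Vamp2 (2867) stood above Cplx2 (2126). The repeat counts of Cplx2 ran from 8451 through a median of 9494 to 10681 in the empty group. In the Wnt5a group they ran from 11170 through 11468 to 11589, without overlap, as do the libraries of 44.2% of all genes tested. By library it stood at 10479 and 8544 against 11381 and 11505, a log2 difference of 0.27 (SE 0.11; limma adjusted p = 0.308). Empty library B moved this value most: without it the Cplx2 difference was 0.13, and without empty library A 0.42. Cplx1, the form of fast synapses, overlapped, at 273 and 254 against 222 and 277.

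Unc13 and Rims genes stood lower in the Wnt5a libraries, without passing the threshold. Unc13b (Munc13-2) stood at 399.6 and 448 against 318 and 378, a log2 difference of -0.29 (SE 0.11; limma adjusted p = 0.278). It was -0.16 without Wnt5a library A. Unc13a (Munc13-1), the main priming factor of brain synapses, stood at 1338 and 1158 against 1126 and 1038. Rims2, the active zone scaffold used by endocrine cells, stood at 986 and 822 against 777 and 716, which is -0.27 on the log2 scale (limma adjusted p = 0.272). Rims3 stood at 1786 and 1658 against 1547 and 1516. In these 4 genes both Wnt5a libraries lay below both empty libraries, as they did for 21.5% of all genes tested. Rims1 and Rims4, at 24.8 to 65.9, overlapped between groups. Of the 8 complexin and priming genes, 7 had a difference below 0, beside 6095 of all 12357 genes tested, with a median of -0.19. The main limma fit, edgeR and DESeq2 called 0 of them. In that limma fit 3 (Cplx2, Rims2 and Unc13b) had an unadjusted p under 0.05, beside 16.1% of all genes tested. An alternative limma fit that pairs same-numbered libraries (a replicate block) called 5 of the 8, beside 17.0% of all genes tested. The labels give that number no meaning. With 1 library left out the Rims2 difference ran from -0.40 to -0.14.

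The proteins of the vesicle membrane contained the member that fell. Sv2b encodes a glycoprotein transporter of secretory vesicles that binds synaptotagmin and, like its relatives, serves as an entry receptor for botulinum toxin A. Its repeat counts ran from 404 through a median of 468 to 524 in the empty group. In the Wnt5a group they ran from 276 through 301 to 325, all below those of the empty group. By library it stood at 507 and 422 without Wnt5a and at 303 and 297.5 with it, or 1.55-fold lower. The log2 difference was -0.62 (SE 0.11, 95% interval -0.88 to -0.37; limma adjusted p = 0.043, edgeR 0.043, DESeq2 0.00023). The difference was -0.74 for library pair A and -0.50 for library pair B. The limma call was lost without the filter on low values (adjusted p = 0.118), with a minimum value of 50 (0.068), without the trend (0.098), and without Wnt5a library A (0.085) or Wnt5a library B (0.121). Over all alternatives run the Sv2b difference stayed between -0.76 and -0.49.

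Its relative Sv2a, the target of the antiepileptic drug levetiracetam, overlapped between groups, at 512 and 388 against 476 and 459 (log2 difference 0.07, 95% interval -0.25 to 0.39). Syn2, a synapsin that tethers vesicles to actin, stood at 777 and 642 against 531 and 567, a log2 difference of -0.36 (SE 0.11; limma adjusted p = 0.159). Without empty library B the Syn2 difference was -0.50 and without empty library A -0.23. The repeat counts of Syn2 in the empty libraries (623 to 822) all lay above those in the Wnt5a libraries (492 to 602). Syn1 stood at 929.5 and 756 against 793 and 693, and Syn3 at 95.4 and 77.7 against 84.3 and 91.6. In the RefSeq table Syn1 overlaps Araf and Timp1, Syn2 overlaps Timp4, and Syn3 overlaps Fbxo7 and Timp3, and since the use of strand is not given, reads of such partners may be mixed. Syp, synaptophysin, led this group per kilobase (547 normalised reads per kb), and stood at 1718 and 1525 against 1571 and 1409, a log2 difference of -0.12 with a 95% interval of -0.34 to 0.10. Snap91, a clathrin coat protein matched by its symbol although it is no SNARE, stood at 1887 and 1871 against 1744 and 1688. Of the 7 genes, 1 passed in limma, in edgeR and in DESeq2.

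**Figure D3:**
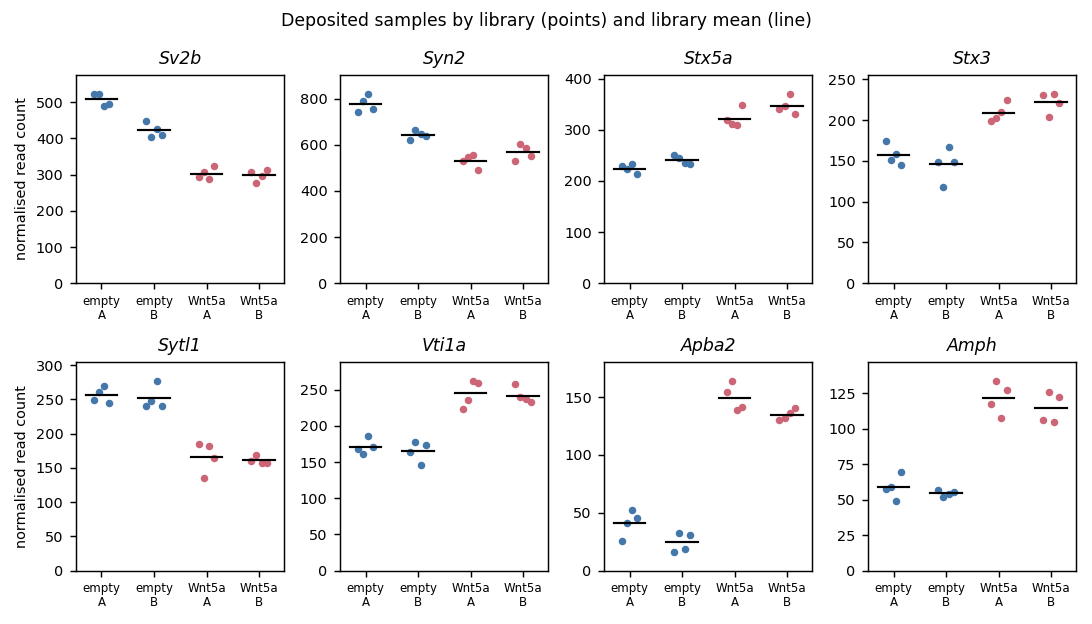
Normalised read count of the 16 deposited samples (points, 4 per library) and library means (lines) for 4 members (top row) and 4 other release genes (bottom row); axes start at 0. In each panel the Wnt5a samples lie on one side of the empty samples, below for Sv2b, Syn2 and Sytl1 and above for the other 5. The 4 points of a library are repeat counts and not replicates, and 44.2% of all genes tested had libraries that did not overlap.

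Among the SNAREs of endosome, Golgi and ER, the member that rose was Stx5a, the syntaxin through which cargo passes from the ER to and within the Golgi. Its repeat counts ran from 213 through a median of 233 to 251 in the empty group. In the Wnt5a group they ran from 309 through 335 to 371, with no overlap. By library it stood at 224 and 241 without Wnt5a and at 321 and 347 with it, or 1.44-fold higher. The log2 difference was 0.52 (SE 0.09, 95% interval 0.30 to 0.74; limma adjusted p = 0.049), and it was 0.52 in both library pairs. The adjusted p was 0.051 in edgeR and 0.0059 in DESeq2, 0.108 without the filter, 0.072 with a minimum value of 50, 0.092 without the trend, 0.058 after median centring and 0.055 after quantile normalization. Without Wnt5a library A it was 0.109 and without Wnt5a library B 0.265.

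Stx16, a syntaxin of the trans-Golgi network, stood at 1115 and 1216 against 1453 and 1438. The log2 difference of Stx16 was 0.31 (SE 0.08, limma adjusted p = 0.111), and 0.25 to 0.37 with 1 library left out. Stx6, its partner in transport from endosomes to the Golgi, stood the other way, at 632 and 675 against 565 and 558, a log2 difference of -0.22. Vamp4, the vesicle SNARE of the same complex, stood at 615 and 568 against 551 and 489.7. Stx6 and Vamp4 lie on chromosome 1, and after the median of that chromosome was subtracted their differences were -0.04 and -0.01. Stx12, an endosomal syntaxin, led per kilobase of the longest transcript (468 normalised reads per kb) and overlapped between groups (1327 to 1445), as did Stx7 (1032 to 1163), also of endosomes. With the median transcript length Stx16 led in its place. Stx17, the syntaxin of autophagosomes, stood at 313 in both empty libraries and at 319 and 315.5 in Wnt5a, and Stx18 of the ER at 255 and 262 against 244 and 250.4. Stx8 stood at 154 and 141 against 157.5 and 173. Snap29, Snap47 and Vamp7 differed by 0.12, 0.02 and -0.05 on the log2 scale; Vamp7 has a processed pseudogene, so its reads are less certain. Of the 12 genes, 1 passed in limma, 0 in edgeR and 1 in DESeq2, and 3 had an unadjusted p under 0.05 in limma (1.99%, 4.35% and 16.1% of all genes tested for edgeR, DESeq2 and the unadjusted p).

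The sequence upstream of 4 members is shown because 2 of them carried the calls and the other 2 are a very abundant member and a well-studied neuronal promoter. Each is the 250 bases before the first start listed for the gene by RefSeq (GRCm38.p6), 5′ to 3′ on the gene's strand. The windows are chr7:75309263-75309512 (minus strand) for Sv2b, chr19:8741174-8741423 (plus) for Stx5a, chr13:54302306-54302555 (plus) for Cplx2 and chrX:20920919-20921168 (minus) for Syn1. RefSeq lists 4 starts for Sv2b and 2 for Stx5a, and which one these cells used is not shown by gene counts. Capitals mark matches, on either strand, to 5 motifs: the cAMP response element TGACGTCA, the E-box CAGCTG, the left part CAGCACC of the RE1 element bound by the neuronal gene repressor REST, the CCAAT box CCAAT and the GC box GGGCGG.
Sv2b: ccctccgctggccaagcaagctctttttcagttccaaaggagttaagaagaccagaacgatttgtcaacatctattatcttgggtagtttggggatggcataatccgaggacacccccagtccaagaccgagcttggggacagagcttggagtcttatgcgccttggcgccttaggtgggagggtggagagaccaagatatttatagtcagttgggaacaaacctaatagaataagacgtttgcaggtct
Stx5a: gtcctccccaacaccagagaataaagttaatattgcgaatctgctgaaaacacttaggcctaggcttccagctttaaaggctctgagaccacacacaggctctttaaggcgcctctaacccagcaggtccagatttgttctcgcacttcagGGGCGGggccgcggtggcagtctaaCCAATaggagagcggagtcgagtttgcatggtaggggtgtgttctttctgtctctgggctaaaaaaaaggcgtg
Cplx2: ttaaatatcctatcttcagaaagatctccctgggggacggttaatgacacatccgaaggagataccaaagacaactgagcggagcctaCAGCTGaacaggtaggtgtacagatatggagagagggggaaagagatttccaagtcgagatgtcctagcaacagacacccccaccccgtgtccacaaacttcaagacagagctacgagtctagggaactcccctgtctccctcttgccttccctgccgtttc
Syn1: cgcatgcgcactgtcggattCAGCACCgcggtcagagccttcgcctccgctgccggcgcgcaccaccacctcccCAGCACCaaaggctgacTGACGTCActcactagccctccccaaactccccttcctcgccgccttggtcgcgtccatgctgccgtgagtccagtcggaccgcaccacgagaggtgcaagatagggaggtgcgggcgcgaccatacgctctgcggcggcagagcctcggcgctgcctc

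The window of Sv2b held no match to the 5 motifs. The window of Stx5a held a GC box starting 99 bases and a CCAAT box starting 74 bases before the start. The window of Cplx2 held 1 E-box, 162 bases before the start. The window of Syn1 held a cAMP response element 159 bases before the start and RE1 left parts at 230 and 176 bases. None of the marked matches overlap each other. Over the 46 members with an entry, 12 (26.1%) held the E-box, beside 14.7% of all 27025 RefSeq genes and 14.0% of the tested genes with an entry. The GC box was held by 34 members (73.9%), beside 35.4% of all genes and 66.0% of those tested. The CCAAT box was held by 32.6% of the members, beside 37.5% and 41.2%, the cAMP response element by 4.35%, beside 1.77% and 3.25%, and the RE1 left part by 4.35%, beside 6.56% and 7.4%. These are letter matches and not measured binding sites.

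Where a member lay in the genome went with the sign of its difference on 3 chromosomes. All genes tested on chromosome 1 had a median log2 difference of -0.17, those on chromosome 11 of 0.17 and those on chromosome 19 of 0.36, while the medians of the 17 other numbered or X chromosomes lay between -0.02 and 0.02. On chromosome 1, all 5 members (Rims1, Stx6, Syt14, Syt2 and Vamp4) lay between -0.22 and -0.16. On chromosome 11, all 5 members (Doc2b, Snap47, Stx8, Stxbp4 and Vamp2) lay between 0.02 and 0.16. On chromosome 19, Stx3, Stx5a and Syt7 lay between 0.27 and 0.52, and Doc2g, at 23.4 to 32.6 in the 4 libraries, at -0.03. Thus 13 of these 14 members lay on the same side of 0 as the median of their chromosome. After the chromosome median was subtracted, the difference was 0.16 for Stx5a (limma adjusted p = 0.609), 0.15 for Stx3 (0.684), -0.09 for Syt7 and -0.04 for Syt2, and Stx5a was no longer called. The difference of Sv2b, on chromosome 7 with a median of -0.0020, was -0.62 and kept its call (limma adjusted p = 0.048). The other 47 members had a median of -0.07, with 31 below 0 and 16 above. For the members on chromosomes 1, 11 and 19, a change with Wnt5a and a difference that their whole chromosome shares between the lines cannot be told apart.

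**Figure D4:**
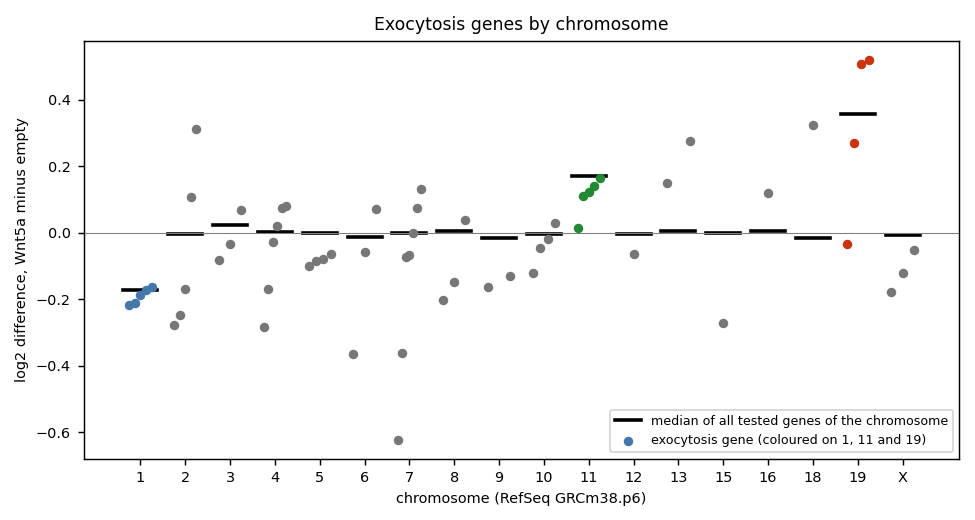
Log2 difference between the Wnt5a and empty libraries of 60 of the 61 genes (points) by chromosome, with the median of all tested genes of that chromosome (bars). The members on chromosome 1 lie near its median of -0.17, those on chromosome 11 between 0.02 (Snap47) and 0.16 beside a median of 0.17, and Stx3, Stx5a and Syt7 near the chromosome 19 median of 0.36, while Sv2b lies at -0.62 on a chromosome with a median near 0.

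Pairs of related genes were also set side by side as a log2 ratio in each library, which compares libraries and not the levels of 2 genes. The Stx1a to Stx4a ratio was 0.49 and 0.40 without Wnt5a and 0.26 and 0.29 with it, lower in both. The Cplx1 to Cplx2 ratio was -5.26 and -5.07 against -5.68 and -5.37, also lower in both. The Snap25 to Snap23 ratio overlapped, at 4.35 and 3.96 against 4.02 and 3.57, with a mean difference of -0.36. The ratios Vamp2 to Vamp3, Rab3a to Rab3d and Syt1 to Syt11 overlapped as well, with mean differences of 0.03, 0.01 and -0.09. These ratios are a description and were not tested. How often the ratio of other gene pairs separates the groups was not measured. Among single genes, 44.2% of all tested had libraries that did not overlap.

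Libraries A and B differed within each group in a way that several release genes shared. Library A stood above library B in both groups for 29 of the 61 members (47.5%, beside 36.0% of all genes tested). Library B stood above A in both groups for 15 (24.6%, beside 35.3%). Examples of the first kind, picked after their values were seen, are Syt1, Snap25, Syn1, Syp and Rab3b, while Stx1a, Syn2, Syn3 and Cplx1 were higher in A in the empty group and lower in A in the Wnt5a group. Syt1 was higher in A by 0.27 in the empty and 0.22 in the Wnt5a libraries on the log2 scale. Snap25 was higher in A by 0.19 and 0.14, Syn1 by 0.30 and 0.19, and Syp by 0.17 and 0.16. Rab3b was higher in A by 0.55 and 0.30. Vamp2 was higher in A only among the empty libraries, by 0.31 against -0.03. On the other side, the difference of A from B was -0.20 and -0.30 for Snap23 and -0.25 and -0.42 for Vamp1. For Syt1 and Syp these gaps within a group were larger than their differences between groups of -0.12 each, and for Snap25 they were smaller than its difference of -0.25.

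**Figure D5:**
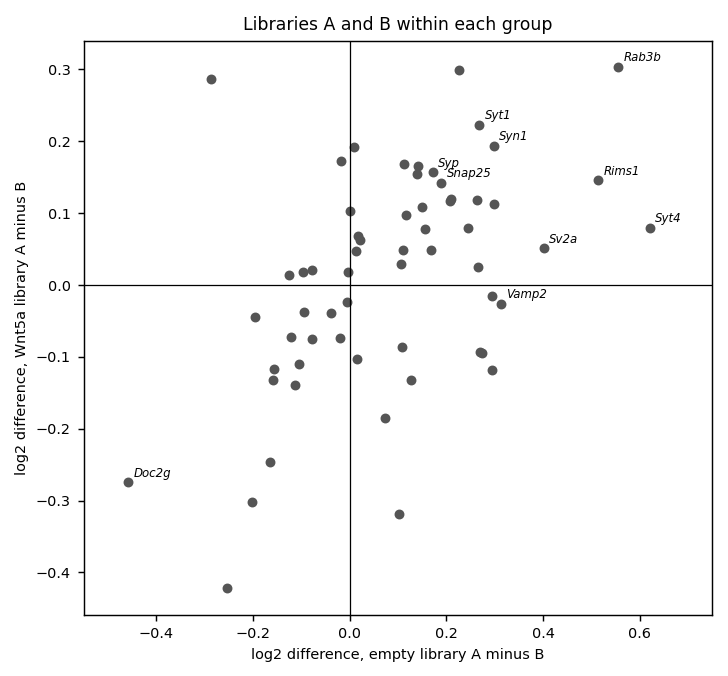
Log2 difference between libraries A and B within the empty group (horizontal axis) and within the Wnt5a group (vertical axis) for 60 of the 61 genes, with the genes of largest difference in the empty group and some genes named in the text labelled. The upper right part holds 28 genes, among them Syt1, Syn1, Snap25 and Syp, and the lower left part holds 15.

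Beyond the members, 93 other genes of release and membrane traffic were listed, and 84 were tested. Of these, 3 rose and 1 fell in limma, with a median log2 difference of -0.05 beside 0.0026 over all genes tested. Of all genes tested, 1.38% rose and 0.672% fell. Apba2 (Mint2), an adaptor protein of the nerve terminal, had the largest difference. It rose from 41.1 and 24.5 without Wnt5a to 149.6 and 135 with it, 4.34-fold, a log2 difference of 2.13 (SE 0.24; limma adjusted p = 0.0088). Amph (amphiphysin), which helps to retrieve vesicles after fusion, rose from 58.7 and 54.5 to 121 and 115, 2.09-fold, a log2 difference of 1.05 (SE 0.12; limma adjusted p = 0.010). Vti1a, a SNARE that works with Stx6 and Stx16 at the trans-Golgi network, rose from 171 and 165 to 245 and 242. That is 0.53 on the log2 scale (limma adjusted p = 0.044), and like Stx5a the gene lies on chromosome 19. After the chromosome median was subtracted, the Vti1a difference was 0.17 (limma adjusted p = 0.575) and it was no longer called. For Vti1a too, a change with Wnt5a and a difference shared by the whole chromosome cannot be told apart.

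Sytl1 (synaptotagmin-like 1), an effector of Rab27 on secretory granules, was the gene of the list that fell. It stood at 256 and 251 without Wnt5a and at 166 and 161 with it, a log2 difference of -0.63 (SE 0.09; limma adjusted p = 0.024). The repeat counts of Sytl1 in the Wnt5a libraries (135 to 184) all lay below those in the empty libraries (240.5 to 277). Without Wnt5a library A, and without Wnt5a library B, 2 of the 4 calls remained, both of them rises, so the call of Sytl1 was lost each time. With no filter on low values 1 of the 4 remained. The list held 10 tested genes of voltage-gated calcium channels, which admit the calcium that triggers release. Of these, 9 had a difference below 0, beside 6095 of all 12357 genes tested, with a median of -0.19. Limma called 0 of these 10, and 1 had an unadjusted p under 0.05: Cacna2d1, at 5670 and 5331 against 4982 and 4109. All 9 genes tested from the dense-core vesicle release list were higher in library A than in library B in both groups.

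The 10 members below the mean of 10 were not tested in the main comparison. Just inside the limit lay Doc2g, with a mean of 27.6. Stxbp6 (amisyn, a syntaxin-binding inhibitor) had 1 and 6 reads against 19 and 17. Stx11, Stx19, Sv2c, Syt12, Syt15, Syt6, Unc13d and Vamp5 had at most 47 reads in any library. Of the 61 described members, 12 overlap another protein-coding gene in the RefSeq table, among them Unc13a, Unc13b, Syt1 and the synapsins, and their counts carry that uncertainty.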

How the data were processed

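The data are RNA sequencing of 16 samples of mouse preSC in 2 groups of 8, with poly(A) RNA taken from 500 ng of total RNA, per the labels' protocols. The submitters' processing notes name TopHat, Bowtie, HTSeq and DESeq2 without role or version; the genome build, annotation and strand use are not given in the sources used here. Each deposited file holds 1 signal value per gene, normalized by the authors per its file name. All values above 0 (100%) were whole multiples of 1 step per file (tolerance 0.01 reads), so whole reads were recovered; 1 read is worth 0.934 to 1.11.

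Samples 1 to 4 and 5 to 8 of a group were averaged as 2 libraries. Genes with a mean value of at least 10 were compared with limma 3.58.1 in R 4.3.3 (lmFit, then eBayes with a mean-variance trend) after log2(value + 1), and p-values were adjusted over the 12357 genes by Benjamini-Hochberg (threshold 0.05); this scale understates the change of low genes. Alternatives were other pseudocounts, filters and scalings, no trend, all samples separately, a replicate block, omission of each library, removal of chromosome medians, and edgeR 4.0.16 and DESeq2 1.42.0 on the recovered reads. The fits were tested on simulated data. Chromosomes and promoter sequences came from RefSeq (GRCm38.p6) and transcript lengths from GENCODE M21, found for 60 of 61 members. The members, lists and tests were chosen with earlier results of these data known. Full values are given for members past the threshold, the 8 largest differences at a mean of at least 100 and the highest level per kilobase in each role group; other members are given by role. Some genes are not reported here.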

Additional observations from a re-analysis of the deposited data

How the results depend on the processing

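With 2 libraries per group the calls sit close to the threshold, and the cause of each change below was not tested. The count of members called, 2 in the report, was 0 with no filter on low values (9 at an unadjusted p under 0.05), 0 with a minimum mean value of 50 (12) and 0 without the trend (7). It was 1 after median centring, after quantile normalization, with edgeR and after removal of the chromosome medians, each time Sv2b, and 3 with DESeq2. When the 16 samples were counted separately, which treats repeat counts of one library as replicates, it was 29, beside 35.4% of all genes tested. Leaving out 1 library gave 0 to 6 calls: 0 without either Wnt5a library, 4 without empty library A and 6 without empty library B. Over all 12357 genes the calls moved alike: 166 and 138 without Wnt5a library A and B, 493 without empty library A and 1098 without empty library B, against 254 with all libraries. The count for the other release genes, 4 in the report, was 1 with no filter on low values, 35 with the samples counted separately and 2 to 14 with 1 library left out. Same-numbered libraries of the 2 groups deviated together across 12357 genes (Pearson r 0.44, Spearman rho 0.53), but the labels give the number no meaning. With the replicate block, 15 members (5 higher and 10 lower, including Sv2b and Stx5a) were called, beside 17.0% of all genes tested. The block also called 18 of the other release genes. By role the 15 members were 5 of 8 complexin and priming genes, 3 of 12 SNAREs of endosome, Golgi and ER, and 2 of 8 calcium sensors. They also held 2 of 6 cell membrane SNAREs, 2 of 7 vesicle membrane genes and 1 of 7 synaptotagmins and Doc2 proteins not known to bind calcium. Among the Rab3, vesicle SNARE and syntaxin-binding genes it called 0. The median over the members stayed between -0.087 and -0.036 with 1 library left out.

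Small differences changed sign. Removal of the chromosome medians turned Doc2b to -0.048, Snap47 to -0.16, Stx8 to -0.0069, Stxbp4 to -0.030, Syt14 to 0.011, Syt7 to -0.086 and Vamp2 to -0.059. Median centring turned Snap47 to -0.0040 and Syt9 to -0.019, quantile normalization turned Stxbp5 to 0.0074 and Syn3 to -0.00020, and Syt9 was -0.0039 in edgeR and -0.0059 in DESeq2. With 1 library left out the log2 difference crossed 0 for 21 members, with these ranges: Cplx1 -0.25 to 0.073, Doc2b -0.00081 to 0.24, Doc2g -0.26 to 0.19, Rab3b -0.20 to 0.35, Rims1 -0.43 to 0.083, Snap23 -0.043 to 0.26, Snap47 -0.069 to 0.10, Stx12 -0.087 to 0.034, Stx7 -0.12 to 0.023, Stxbp2 -0.040 to 0.12, Stxbp5 -0.10 to 0.064, Sv2a -0.13 to 0.27, Syn3 -0.12 to 0.18, Syt1 -0.25 to 0.014, Syt11 -0.086 to 0.016, Syt17 -0.22 to 0.082, Syt9 -0.10 to 0.11, Vamp1 -0.14 to 0.28, Vamp2 -0.045 to 0.27, Vamp3 -0.013 to 0.17, Vamp7 -0.13 to 0.026. Called members kept their direction under every alternative run.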
